A study of Mus musculus with 15 samples.

Results

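Enho, Fsd2, Prok1, Sema5b and Htra3 are 5 genes whose transcripts stood higher in mouse livers given Activin A than in livers given green fluorescent protein (GFP). They were chosen by symbol, for those rises, from the 26839 genes listed over the deposited tables. The 3 libraries with Activin A and the 3 NASH diet GFP libraries therefore picked them, and the rise itself is given here as a description with no test. The question asked of them is where each gene stood in livers of chow-fed mice and in livers given a hairpin against Gpnmb.

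The study sequenced liver RNA of male C57BL/6J mice, with 15 libraries in 5 groups of 3. All mice carried an adeno-associated virus of serotype 8, and no group without virus was analysed here. For 16 weeks, 4 groups were given sugar water and a diet that induces non-alcoholic steatohepatitis (NASH). Of these, one received GFP and one Activin A, both driven by the liver-specific promoter of thyroxine binding globulin (TBG). The other two received a hairpin RNA that targets Gpnmb or a scramble hairpin, both driven by the H1 promoter, which is not specific to a cell type. The fifth group received TBG-driven GFP and ate standard chow with normal water for 16 weeks. The labels give no age. They leave unsaid whether each library of a group is another mouse, and the p-values below therefore measure the spread between these libraries, which may be technical in part. Scramble and chow livers differ in both diet and vector, and in that comparison the effects of diet and vector cannot be told apart.

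Activin A is a secreted dimer of the Inhba product and a member of the transforming growth factor beta family. It binds type II receptors such as Acvr2a, which recruit type I receptors such as Acvr1b, and these phosphorylate SMAD proteins that enter the nucleus with Smad4 and bind short DNA motifs beside other factors. Follistatin, the product of Fst, binds activins and blocks them. In liver, activin signalling is known for restraining hepatocyte growth and for acting on stellate cells, and a secreted ligand made in hepatocytes can reach every other liver cell.

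The genes encode proteins of unlike kinds. Enho encodes adropin, a small peptide made in liver and brain that is known in mice for effects on fuel use and for falling liver expression in diet-induced obesity. Prok1 encodes prokineticin 1, a secreted ligand also called endocrine gland-derived vascular endothelial growth factor. Sema5b encodes a transmembrane semaphorin, one of a family known for guiding axons through plexin receptors. Htra3 encodes a secreted serine protease of the HtrA family that binds members of the transforming growth factor beta family in mouse cell experiments. Fsd2 encodes a fibronectin type III and SPRY domain protein described in striated muscle, where it associates with myospryn.

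Sequence just upstream of a gene is where SMAD complexes could bind, so these stretches are shown for the 3 genes whose RefSeq start lies within 37 bases of the start in the files. RefSeq (GRCm38.p6) listed a promoter window for 4 of the 5 genes, all but Enho. The 250 bases before the start are given 5′ to 3′ on the strand of the gene, and capitals mark the SMAD box, GTCT or its reverse complement AGAC. The stretches are chr7:81566982-81567231 (minus strand) for Fsd2, chr3:107239708-107239957 (minus strand) for Prok1, which had 2 listed starts, and chr5:35679781-35680030 (minus strand) for Htra3.
Fsd2: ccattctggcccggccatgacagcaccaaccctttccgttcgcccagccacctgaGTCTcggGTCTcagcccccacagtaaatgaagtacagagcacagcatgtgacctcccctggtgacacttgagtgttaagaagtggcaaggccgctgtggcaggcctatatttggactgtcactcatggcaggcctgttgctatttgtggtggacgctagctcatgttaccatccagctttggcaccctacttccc
Prok1: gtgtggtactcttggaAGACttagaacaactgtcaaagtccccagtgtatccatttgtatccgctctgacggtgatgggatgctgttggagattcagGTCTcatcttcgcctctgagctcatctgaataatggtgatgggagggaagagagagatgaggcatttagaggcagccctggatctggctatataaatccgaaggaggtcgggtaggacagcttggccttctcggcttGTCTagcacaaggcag
Htra3: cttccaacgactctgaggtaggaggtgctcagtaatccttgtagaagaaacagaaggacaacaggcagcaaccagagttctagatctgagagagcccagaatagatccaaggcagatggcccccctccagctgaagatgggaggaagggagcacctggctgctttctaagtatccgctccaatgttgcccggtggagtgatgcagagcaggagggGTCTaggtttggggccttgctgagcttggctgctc

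The SMAD box was in the windows of all 4 genes with a RefSeq start, with 2 matches for Fsd2, 3 for Prok1, 1 for Htra3 and 1 for Sema5b, and it was also in 82.9% of 32851 windows of the same length. A motif this short is common, so most windows hold it. The longer CAGA box (CAGAC, either strand, which contains the SMAD box) was in 1 of the 4 windows, that of Sema5b, against 42.2% of all windows. The GC-rich SMAD site GGCGC was in the same window alone of the 4, with 4 matches, against 32% of all. The E box CANNTG, where N is any base, was in 3 of the 4, all but Sema5b, against 66.2%. The FOXH1 site TGTNNATT was in none of the 4, against 10.9%. The RefSeq start of Sema5b lies 217 bases inside its gene model in the files, so most of that window is transcribed there and its sequence is not shown. These matches describe letters in a window and not binding.

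Total counts per library ran from 15276879 to 23467867, and albumin took 4.53% to 6.70% of them. Levels are normalised read counts (CPM, per 1000000 counts), scaled with TMM factors over all 15 libraries, and fold changes come from edgeR's quasi-likelihood test with Benjamini-Hochberg adjustment over all genes tested. A gene is called at an adjusted p under 0.05, and SE is the standard error of a log2 fold change. The summed CPM of 8 hepatocyte marker genes was 60070 to 115700 in every library, so each sample held the labelled tissue. In these bulk samples, fewer cells of a type and less RNA per cell cannot be told apart.

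Inhba, the gene that encodes Activin A, stood at 8.0 ± 0.136 CPM (SD, n = 3) with NASH GFP and 25.0 ± 0.875 CPM with Activin A, with a log2 fold change of 1.63 ± 0.11 (SE; edgeR adjusted p = 0.000192). Transcript from the vector and from the mouse gene cannot be told apart in these counts. Inhba stood at 11.0 ± 1.64 CPM in chow, 5.56 ± 0.691 CPM in scramble and 10.4 ± 1.70 CPM in hairpin livers. It was thus higher with the hairpin than with scramble (log2 fold change 0.92 ± 0.17, edgeR adjusted p = 0.00325). Gpnmb, the target of the hairpin, was lower with it by a log2 fold change of -3.95 ± 0.26 (edgeR adjusted p = 1.15e-05). Gpnmb was also lower in Activin A than in NASH GFP livers, by a log2 fold change of -2.93 ± 0.27 (edgeR adjusted p = 0.00073).

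The 5 genes rose with Activin A by different amounts. Among the 242 genes called higher in that comparison, which are 1.66% of the 14598 tested (3.86% were called lower and 5.52% in either direction), Fsd2 ranked 6 by log2 fold change, Enho 7, Prok1 13, Sema5b 47 and Htra3 61. The log2 fold change was 3.43 ± 0.28 (SE) for Fsd2, 3.41 ± 0.17 for Enho, 2.83 ± 0.30 for Prok1, 1.49 ± 0.16 for Sema5b and 1.32 ± 0.17 for Htra3. For none of the 5 did the Activin A libraries overlap those of NASH GFP, which held for 13.5% of all tested genes in that direction and is fixed here by the choice of genes. Genes ranked beside them that were not chosen lay at nearly equal values. Serpina3c just above Fsd2 had a log2 fold change of 3.52 ± 0.51, and Serpina4-ps1 just below Enho had 3.32 ± 0.49. Serpina5 (2.96 ± 0.55) and Tnnt2 (2.81 ± 0.60) flanked Prok1. Cnmd (1.5 ± 0.31) and Gm45244 (1.48 ± 0.35) flanked Sema5b, and Tsku (1.34 ± 0.21) and Fam25c (1.31 ± 0.16) flanked Htra3. The call count itself depends on single libraries: it was 1435 without NASH GFP replicate 3, and 293, 372 and 248 without Activin A replicates 1, 2 and 3.

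**Figure D1:**
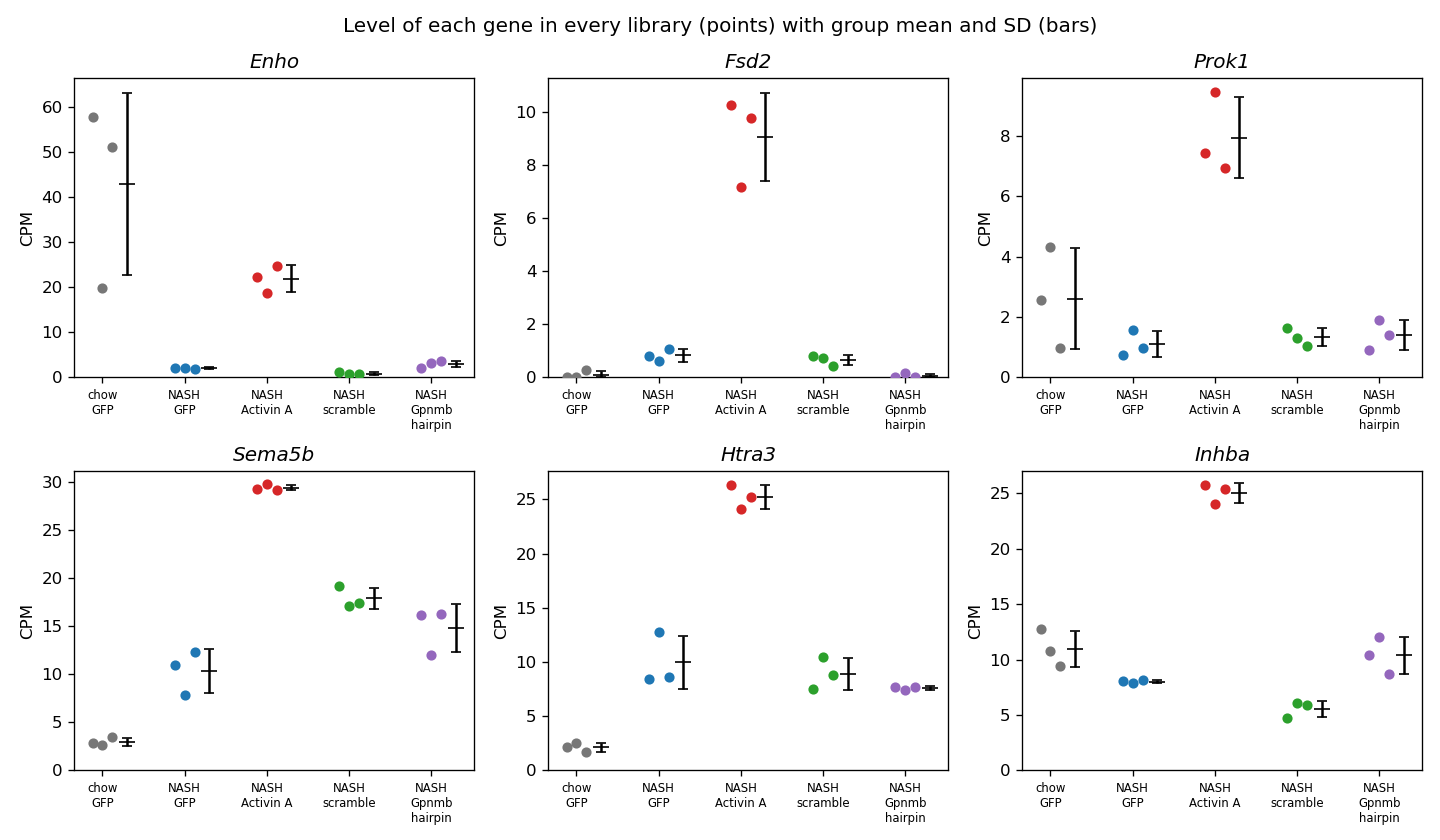
CPM (linear axis from 0, a separate scale for each gene) of Enho, Fsd2, Prok1, Sema5b, Htra3 and Inhba in the 15 libraries; points are libraries and bars the group mean with SD (n = 3). Enho is high in chow and Activin A livers, Sema5b and Htra3 are lowest in chow livers, and Fsd2 is near 0 in chow and hairpin livers.

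In chow livers the 5 genes did not stand alike. Enho was high in chow, Sema5b and Htra3 were low, Fsd2 was close to undetected, and Prok1 lay between with wide scatter. Scaled per kilobase of the gene length in the files, so that genes can be compared, levels in Activin A livers were 14.8 to 19.4 CPM per kilobase for Enho and 5.43 to 5.94 for Htra3. On the same scale they were 4.13 to 4.21 for Sema5b, 2.14 to 2.92 for Prok1 and 1.80 to 2.57 for Fsd2. Enho was therefore the most abundant of the 5 there, and Fsd2 and Prok1 overlapped as the least.

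Scramble livers on the NASH diet were compared with chow livers, and neither group had a part in choosing the genes. Of the 5 genes, 4 passed the filter on low counts, all but Fsd2, and 3 of these were called, where 29.3% of 14678 tested genes were called in either direction. Sema5b and Htra3 were higher (16.5% of tested genes were called higher) and Enho was lower (12.8% were called lower). The genes raised by Activin A thus included both genes higher and genes lower on the NASH diet with scramble than on chow. Without chow replicate 3, 5 were called, with Prok1 lower and Fsd2 higher, the latter through its counts in scramble livers alone. The 4297 genes called over all fell to 2357 without scramble replicate 2 and to 2393 without scramble replicate 3.

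In the Gpnmb hairpin against scramble, 4 of the 5 genes again passed the filter and 1 was called, Enho, which was higher. Of 14845 tested genes, 24.3% were called in either direction, 12.2% higher and 12% lower, so 1 call among 4 is close to the share over all genes. The 3601 genes called over all fell to 2214 without scramble replicate 2 and to 1923 without scramble replicate 3. Without scramble replicate 3, or without any single hairpin library, 2 of the 5 were called, the other being Fsd2, which passed the filter there only through its counts in scramble livers and is not counted as a further call. Both of these comparisons use the same 3 scramble libraries, so a deviation of those libraries would enter both. The scaling of libraries moved the balance of calls. With library size alone in place of TMM, 29% of the calls in the hairpin comparison were of higher genes against 50.3%, and the median over all genes moved to -0.11 on the log2 scale. In scramble against chow 83.8% of the calls were higher against 56.2%, with a median of 0.29. In NASH GFP against chow 86.8% were higher against 65.7%, with a median of 0.24, and with Activin A 20.4% were higher against 30%, with a median of -0.06. Under that scaling the 5 genes kept their direction in every comparison in which they passed the filter.

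**Figure D2:**
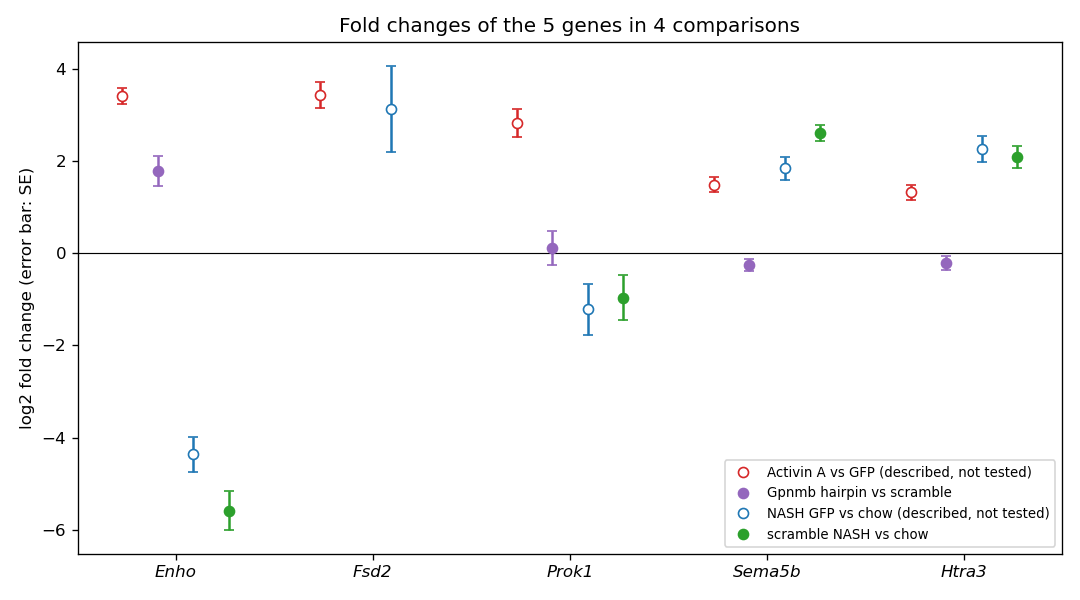
log2 fold change (error bar: SE) of the 5 genes in 4 comparisons, with filled points for comparisons whose libraries did not choose the genes and open points for those that are a description only. Enho lies below 0 in both comparisons with chow and above 0 in the other comparisons, Sema5b and Htra3 lie above 0 in both comparisons with chow, and Fsd2 has no filled point because it did not pass the filter there.

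Enho (ENSMUSG00000028445) lies on GRCm38 chromosome 4, 41638144 to 41640324 on the minus strand, and has 1 annotated transcript of 2 exons. It stood at 57.9, 19.9 and 51.3 CPM in the chow libraries, and at 2.21, 2.11 and 1.78 CPM in the NASH GFP libraries. With Activin A it stood at 22.4, 18.8 and 24.7 CPM. The Activin A libraries lay far above every NASH GFP library, and overlapped chow only through chow replicate 2, which was the lowest chow library. The means were 43.0 ± 20.3 CPM in chow (SD, n = 3), 2.03 ± 0.225 CPM in NASH GFP and 21.9 ± 2.98 CPM in Activin A livers. The Activin A mean was 10.8 times the NASH GFP mean and 51% of the chow mean. The log2 fold change of Activin A against chow was -0.96 ± 0.31 (SE), and that of NASH GFP against chow was -4.36 ± 0.38. Both are descriptions, and the second shares its NASH GFP libraries with the comparison that chose the gene.

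In the scramble libraries Enho stood at 1.15, 0.838 and 0.673 CPM, the lowest group of the 5. In the hairpin libraries it stood at 2.18, 3.21 and 3.57 CPM. The lowest hairpin library lay above the highest scramble library, and libraries of these groups did not overlap, in either direction, for 40.6% of tested genes. Enho rose with the Gpnmb hairpin by 1.78 ± 0.33 on the log2 scale (edgeR adjusted p = 0.00357) and was called in 13 of 13 alternative settings, with adjusted p from 0.000128 to 0.0235. The hairpin mean of 2.99 ± 0.720 CPM (SD, n = 3) was 3.37 times the scramble mean and 6.94% of the chow mean. It overlapped the NASH GFP libraries. Against chow, Enho was lower in scramble livers by a log2 fold change of -5.58 ± 0.43 (edgeR adjusted p = 2.78e-05), with no overlap of libraries, which held for 47.4% of tested genes. The controls of the NASH diet were not equal for this gene, with a log2 fold change of scramble against NASH GFP of -1.22 ± 0.32. Of the 8 hepatocyte markers, 5 were called higher and 0 lower with the hairpin, and 0 higher and 7 lower in scramble against chow. With Activin A 1 of them was called higher and 0 lower. The part of hepatocyte RNA in the differences of Enho was not tested.

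Expression of Enho in liver is known to follow nuclear receptors such as Rora, an activator, and Nr1d1 and Nr1d2, repressors at the same response element. With the hairpin, where Enho was higher, Rora rose by 0.80 ± 0.09 on the log2 scale (edgeR adjusted p = 0.000287) and Nr1d2 fell by 0.34 ± 0.10 (edgeR adjusted p = 0.0284). The call of Rora was kept in 13 of 13 alternatives and that of Nr1d2 in 7 of 13. Rora stood at 105 ± 13.2 CPM (SD, n = 3) in hairpin and 61.5 ± 3.67 CPM in scramble livers. It was lower in scramble than in chow livers by a log2 fold change of -0.48 ± 0.14 (edgeR adjusted p = 0.0296, called in 8 of 13 alternatives). In Activin A livers Rora stood at 98.5 ± 4.67 CPM, in NASH GFP livers at 85.4 ± 5.66 CPM and in chow livers at 87.0 ± 13.5 CPM. Gpr19, a proposed adropin receptor, stood at 3.77 ± 0.526 CPM in NASH GFP and 3.44 ± 0.763 CPM in Activin A livers.

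Enho overlaps the end of Dnaic1 on the other strand by 15 bases and the antisense gene Gm12406 by 947 bases, in the GENCODE M21 annotation. The sources used here do not state how the counting treated strand. Over the chow, NASH GFP, Activin A, scramble and hairpin libraries in turn, Enho held 1962, 127, 1143, 62 and 163 counts. Dnaic1 held 138, 4, 27, 9 and 1 counts, and Gm12406 held 37, 4, 24, 0 and 0. Both neighbours were higher in chow and Activin A than in NASH GFP livers, as Enho was, but between scramble and hairpin Dnaic1 went the other way and Gm12406 was at 0 in both. Whether reads of Enho entered their counts was not tested.

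Sema5b (ENSMUSG00000052133) lies on GRCm38 chromosome 16, 35541145 to 35664732 on the plus strand, with 8 annotated transcripts, 2 of them coding, and up to 22 exons. It stood at 2.86, 2.61 and 3.45 CPM in chow and at 10.9, 7.86 and 12.4 CPM in NASH GFP livers. In Activin A livers it stood at 29.4, 29.8 and 29.2 CPM. The 3 groups did not overlap, as held between NASH GFP and chow for 35.5% of 14388 tested genes in either direction. Chow was lowest and Activin A highest, and the Activin A libraries were nearly equal to each other. Its means were 2.97 ± 0.431, 10.4 ± 2.31 and 29.4 ± 0.284 CPM (SD, n = 3), so the Activin A mean was 9.91 times the chow mean and 2.83 times the NASH GFP mean. Activin A livers therefore stood further from chow than NASH GFP livers did. The log2 fold change was 1.84 ± 0.25 (SE) for NASH GFP against chow and 3.32 ± 0.16 for Activin A against chow, described and not tested.

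In the scramble libraries Sema5b stood at 19.2, 17.2 and 17.5 CPM, and in the hairpin libraries at 16.2, 11.99 and 16.3 CPM. The hairpin libraries all lay below the scramble libraries, but the fitted difference did not pass the test (log2 fold change -0.25 ± 0.13, edgeR adjusted p = 0.193, from 0.068 to 0.506 in 13 alternatives). Scramble livers were above chow by 2.61 ± 0.17 on the log2 scale (edgeR adjusted p = 1.04e-05), and this call was kept in 13 of 13 alternatives. Hairpin livers also lay above chow, with a log2 fold change of 2.33 ± 0.22, described and not tested. Scramble livers were above NASH GFP livers as well, with a log2 fold change of 0.77 ± 0.16, described and not tested. The order of mean levels was chow, NASH GFP, hairpin, scramble and Activin A, and the NASH GFP and hairpin libraries overlapped.

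The other semaphorin genes were read in the same comparisons. With Activin A, the comparison that chose Sema5b, 0 of 14 tested were called higher and 2 lower, with a median log2 fold change of -0.24 beside 0.00 over all genes. Sema4d, a semaphorin of lymphocytes and other cells that binds Plxnb1, had -1.33 ± 0.33 (edgeR adjusted p = 0.0457) and Sema3b, a secreted class 3 semaphorin, had -1.24 ± 0.29 (edgeR adjusted p = 0.0402). These calls were kept in 8 and 9 of 13 alternatives. Sema5a, the nearest relative of Sema5b by name, stood at 2.60 ± 0.486 CPM in Activin A and 3.36 ± 1.04 CPM in NASH GFP livers. With the hairpin, where 12% of all tested genes were called lower, 4 of 14 fell and 0 rose, with a median of -0.23, beside -0.25 for Sema5b. Sema3b fell by 2.13 ± 0.21 (edgeR adjusted p = 0.000109), Sema4d by 1.65 ± 0.27 (edgeR adjusted p = 0.00179), Sema3f by 0.60 ± 0.14 (edgeR adjusted p = 0.0118) and Sema6a by 0.57 ± 0.16 (edgeR adjusted p = 0.0279). In this order the calls were kept in 13, 13, 12 and 7 of 13 alternatives.

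Against chow, some semaphorins were called higher and none lower. In NASH GFP against chow, where 17% of tested genes were called (11.2% higher and 5.82% lower; the 2445 calls fell to 1355, 1524 and 1514 without NASH GFP replicates 1 and 2 and chow replicate 1 in turn), and in scramble against chow 6 of 14 were called higher and 0 lower, with medians of 0.74 and 0.67. The largest in scramble against chow were Sema3b (3.23 ± 0.38, edgeR adjusted p = 0.000287) and Sema4d (2.84 ± 0.27, edgeR adjusted p = 8.95e-05), and Sema5b at 2.61 came next. Of 8 tested plexins, the semaphorin receptors, 0 were called with Activin A by edgeR, DESeq2 or limma, and 1 had an unadjusted edgeR p under 0.05. With the hairpin 2 of the 8 fell, beside 12% of all tested genes called lower. These were Plxnc1 by 0.55 ± 0.14 (edgeR adjusted p = 0.0173, called in 11 of 13 alternatives) and Plxnd1 by 0.49 ± 0.14 (edgeR adjusted p = 0.0245, called in 8 of 13). In scramble against chow 3 were higher and 1, Plxnb1, was lower. Plxna1 and Plxna3, which bind class 5 semaphorins in the mouse retina, stood at 14.1 ± 0.379 and 1.40 ± 0.135 CPM in Activin A livers and at 15.8 ± 2.97 and 2.16 ± 0.826 CPM in NASH GFP livers. Plxna1 was higher in scramble than in chow livers by 1.21 ± 0.22 on the log2 scale (edgeR adjusted p = 0.00292).

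**Figure D3:**
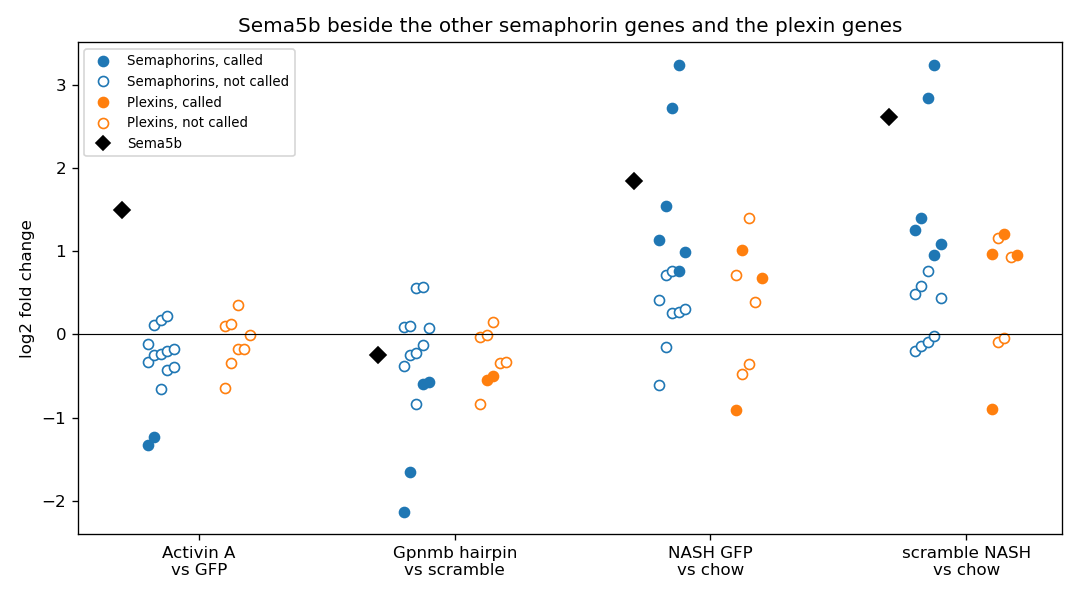
log2 fold change of Sema5b (black diamonds), of 14 other semaphorin genes (blue) and of 8 plexin genes (orange) in 4 comparisons, with filled circles for called genes. Sema5b lies above all other semaphorins in Activin A against GFP, where it was chosen for its rise, and among the higher ones in both comparisons with chow.

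Htra3 (ENSMUSG00000029096) lies on GRCm38 chromosome 5, 35652023 to 35679782 on the minus strand, with 6 annotated transcripts, 4 of them coding, and up to 9 exons. It stood at 2.13, 2.54 and 1.73 CPM in chow and at 8.47, 12.7 and 8.66 CPM in NASH GFP livers. In Activin A livers it stood at 26.4, 24.1 and 25.2 CPM. As for Sema5b, these 3 groups did not overlap, with chow lowest and Activin A highest. The means were 2.13 ± 0.405, 9.96 ± 2.41 and 25.2 ± 1.13 CPM (SD, n = 3), and the Activin A mean was 11.8 times the chow mean. The log2 fold change was 2.26 ± 0.28 (SE) for NASH GFP against chow and 3.58 ± 0.19 for Activin A against chow, both as descriptions.

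In the scramble libraries Htra3 stood at 7.50, 10.5 and 8.83 CPM, and in the hairpin libraries at 7.70, 7.42 and 7.68 CPM. These groups overlapped, and the difference did not pass the test (log2 fold change -0.21 ± 0.15, edgeR adjusted p = 0.357). Scramble livers were above chow by 2.08 ± 0.24 (edgeR adjusted p = 0.000253), called in 13 of 13 alternatives. Scramble and NASH GFP livers overlapped with a log2 fold change of -0.18 ± 0.20 between them. Of its paralogues, Htra1, a secreted protease of the same family, was 3.96 ± 1.33 CPM in Activin A and 5.98 ± 3.51 CPM in NASH GFP livers (edgeR adjusted p = 0.476), and was called higher in NASH GFP than chow (1.65 ± 0.43, edgeR adjusted p = 0.0244, called in 9 of 13 alternatives). It was also called higher in scramble than chow (0.97 ± 0.27, edgeR adjusted p = 0.025, called in 7 of 13). Htra2, which encodes a mitochondrial protease, was called in none of the 4 comparisons, with edgeR adjusted p from 0.832 to 0.914. Htra4 had at most 6 counts in a library on the NASH diet and 8 to 11 in chow.

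Htra3 and Sema5b stood low in chow livers, as did the genes of stellate cells and fibroblasts, the matrix-producing cells of liver. Of 15 such markers, 13 were called higher and 0 lower in scramble against chow and 12 higher and 0 lower in NASH GFP against chow, with summed CPM of 301 to 355 in chow, 577 to 828 in NASH GFP and 657 to 808 in scramble livers. With Activin A, 0 of the 15 were called higher and 4 lower, among them Col1a1 (-1.56 ± 0.24, edgeR adjusted p = 0.00678) and Col3a1 (-1.42 ± 0.23, edgeR adjusted p = 0.0077), and the summed level was 578 to 600 CPM. With the hairpin, where 12% of all tested genes were called lower, 11 fell and 0 rose, to 461 to 527 CPM. In Activin A livers, where Htra3 and Sema5b were highest, the summed marker level thus lay above the hairpin and chow libraries and within or below the range of the NASH GFP and scramble libraries. Of 9 sinusoidal endothelial markers, 1 was called higher and 1 lower with Activin A, 0 higher and 4 lower with the hairpin, and 7 higher and 0 lower in scramble against chow. Of 11 macrophage markers, 8 were called lower and 0 higher with Activin A, 9 lower and 0 higher with the hairpin, and 10 higher and 0 lower in scramble against chow. The summed level of cholangiocyte markers was 68.9 to 73.7 CPM in Activin A, 153 to 320 CPM in NASH GFP and 75.7 to 93.3 CPM in chow livers. The part of these cell types in the differences of Htra3 and Sema5b between the diets was not tested.

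Prok1 (ENSMUSG00000070368) lies on GRCm38 chromosome 3, 107232797 to 107239707 on the minus strand, with 3 annotated transcripts, 2 of them coding, and up to 3 exons. It stood at 2.55, 4.32 and 0.966 CPM in chow and at 0.750, 1.58 and 0.969 CPM in NASH GFP livers. In Activin A livers it stood at 7.42, 9.47 and 6.93 CPM, above every other library of the study. The means were 2.62 ± 1.68, 1.10 ± 0.431 and 7.94 ± 1.35 CPM (SD, n = 3). Chow and NASH GFP overlapped, and the Activin A mean was 3.04 times the chow mean and 7.22 times the NASH GFP mean. The log2 fold change of Activin A against chow was 1.61 ± 0.41 (SE).

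Prok1 stood at 1.63, 1.32 and 1.03 CPM in scramble and at 0.909, 1.89 and 1.41 CPM in hairpin livers, which overlapped each other and the NASH GFP libraries. The difference between hairpin and scramble was 0.11 ± 0.36 on the log2 scale (edgeR adjusted p = 0.851), and that of scramble against chow was -0.96 ± 0.49 (edgeR adjusted p = 0.169). The former changed sign without scramble replicate 3 (-0.04 ± 0.43) and without hairpin replicate 2 (-0.16 ± 0.41). The latter varied over the alternatives, and chow replicate 3 held 14 counts beside 42 and 58 in the other chow libraries. Without chow replicate 3 the log2 fold change of scramble against chow was -1.38 ± 0.36 (edgeR adjusted p = 0.0214). Over 13 alternatives it ran from -1.38 to -0.42, and the adjusted p from 0.0214 to 0.516. Below Activin A, the groups of Prok1 were not separated beyond their spread.

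The receptors of prokineticins were close to undetected. Prokr1 had 0 to 9 counts in a library and was at 0 in the 3 Activin A libraries, and Prokr2 had 0 to 2. Neither passed the filter, and Prok2, the other ligand, was not among the genes listed, so it had no counts here. Prok1 is best known from steroid-producing glands. Of 4 markers of such glands in the tables, Cyp11a1 and Cyp11b2 were at 0 in Activin A livers, where the summed level was 6.88 to 11.7 CPM, beside 2.75 to 7.57 CPM in NASH GFP livers. The markers that were tested, Star (0.57 ± 0.26, edgeR adjusted p = 0.272) and Cyp21a1 (0.85 ± 0.61, edgeR adjusted p = 0.513), were not called with Activin A. Of 9 tested vascular endothelial growth factors and receptors, 0 were called with Activin A by edgeR, DESeq2 or limma, and 2 had an unadjusted edgeR p under 0.05. With the hairpin 1 was called, Nrp1, a co-receptor of these factors and of semaphorins, which rose by 0.47 ± 0.07 (edgeR adjusted p = 0.00124). In scramble against chow 4 were higher, led by Nrp2 (1.38 ± 0.12, edgeR adjusted p = 5.63e-05), and Vegfa was lower (-0.62 ± 0.11, edgeR adjusted p = 0.00252).

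Prok1 shares 1927 bases with A630076J17Rik on the other strand. That gene held 90 counts over the Activin A libraries, 8 over NASH GFP, 18 over scramble, 5 over hairpin and 34 over chow, beside 415, 68, 93, 77 and 114 counts of Prok1. The pair were both highest with Activin A, and how far reads of one entered the count of the other was not tested. Sema5b holds the pseudogene Gm5963 within it, which had 0 to 2 counts in a library, and Fsd2 and Htra3 overlap no other annotated gene.

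Fsd2 (ENSMUSG00000038663) lies on GRCm38 chromosome 7, 81533308 to 81566944 on the minus strand, with 1 annotated transcript of 13 exons. It had 188, 125 and 161 counts in the Activin A libraries and 18, 13 and 20 in the NASH GFP libraries. It had 18, 17 and 11 counts in the scramble libraries, 0, 3 and 0 in the hairpin libraries and 0, 0 and 4 in the chow libraries. Fsd2 was thus almost undetected in chow and hairpin livers, detected at a low level under both NASH controls and highest with Activin A. In CPM these levels were 9.07 ± 1.66 in Activin A, 0.831 ± 0.229 in NASH GFP and 0.660 ± 0.195 in scramble livers (SD, n = 3).

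Fsd2 did not pass the low-count filter in the comparisons of scramble with hairpin and with chow, so single counts carry the values. From 46 counts over the scramble libraries and 3 over the hairpin libraries, the ratio of scramble to hairpin was 11.7, with an exact 95% interval for counting error only of 3.77 to 59.0. The libraries of these groups did not overlap, and the exact two-sided permutation p was 0.1, the smallest that 3 against 3 can give. Fitted with no filter, the log2 fold change of hairpin against scramble was -3.44 ± 0.94 (edgeR adjusted p = 0.0104). In 7 alternatives that gave a p, the adjusted p was 0.0104 to 0.0447. In the fits that leave out 1 library, the gene passes the filter only through the scramble libraries, where it is high. In the fit of all 15 libraries it passes through groups where it is high, the Activin A libraries that chose it among them. The fits without this filter rest on 3 counts over the hairpin libraries. These values are therefore no support for a difference. The ratio of scramble to chow was 7.23 (exact 95% interval 2.64 to 27.6, from 46 and 4 counts), with an exact permutation p of 0.1, again the smallest possible. There the adjusted p of 7 alternatives was 0.00947 to 0.116, with the same limits. The ratio of Activin A to chow was 101 (39.1 to 371) and that of Activin A to hairpin 163 (55.6 to 795), as descriptions.

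Fsd2 is described in striated muscle, and some libraries held muscle transcripts. The summed CPM of 12 striated muscle markers, such as Acta1 and Ckm, was 80.3, 1.03 and 38.4 in the Activin A libraries and 0.706, 16.6 and 67.9 in the NASH GFP libraries. It was 0.662 to 1.46 in scramble, 0.703 to 2.12 in hairpin and 0.790 to 17 in chow livers. Activin A replicate 2, with 1.03 CPM of muscle markers, had 7.17 CPM of Fsd2, and NASH GFP replicate 3, with 67.9 CPM of muscle markers, had 1.08 CPM. Within the Activin A libraries both were highest in replicate 1 and lowest in replicate 2, and within NASH GFP both were highest in replicate 3. The low ends differed within NASH GFP, where muscle markers were lowest in replicate 1 (0.706 CPM) and Fsd2 in replicate 2 (0.623 CPM). The part of muscle transcripts in the level of Fsd2 was not tested. Of 10 muscle markers tested with Activin A, 0 were called by edgeR, DESeq2 or limma, and 0 had an unadjusted edgeR p under 0.05. Cmya5, which encodes myospryn, stood at 0.795 ± 0.654 CPM in Activin A and 0.983 ± 1.03 CPM in NASH GFP livers, and was not called (edgeR adjusted p = 0.908). Of the Fsd relatives, Fsd1l stood at 0.869 ± 0.201 and 1.32 ± 0.257 CPM in these groups (edgeR adjusted p = 0.419), and Fsd1 had at most 6 counts in a library.

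Each of the 5 genes was also set against 11670 other genes. These had a mean log2 CPM of 0 or more and a plain symbol, so numbered Gm genes and Rik genes, among others, were left out. The measure was the root mean square difference between the log2 CPM of such a gene and of the chosen gene over the 15 libraries. Each gene's own mean had been removed before. For Enho, whose own root mean square spread was 2.07, the nearest were Serpina4-ps1 at 0.895, Foxq1 at 1.06 and Serpina1e at 1.06. Foxq1, a forkhead transcription factor gene, stood at 62.7 ± 27.3 CPM (SD, n = 3) in chow, 8.95 ± 3.42 in NASH GFP, 19.4 ± 3.58 in Activin A, 5.03 ± 0.835 in scramble and 12.2 ± 5.58 in hairpin livers. Serpina1e has near-identical copies beside it and Serpina4-ps1 is named as a pseudogene, so both counts are uncertain as to the copy.

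For Fsd2, with a spread of 2.23, the nearest was Slc13a4, a sulfate transporter gene, at 0.795. Slc13a4 stood at 24.5 ± 4.95 CPM (SD, n = 3) in Activin A, 1.66 ± 0.377 in NASH GFP, 1.56 ± 0.127 in scramble, 0.566 ± 0.179 in hairpin and 0.493 ± 0.189 in chow livers. Its order of groups was the one described for Fsd2, with chow and hairpin lowest. Nebl, which encodes the actin-binding protein nebulette of heart muscle, followed at 1.06 and Wfdc2, which encodes a secreted protein with whey acidic protein domains, at 1.24.

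For Prok1, with a spread of 1.12, the nearest of the genes searched was Inhba itself at 0.657. Mug2, a murinoglobulin protease inhibitor gene with a close copy that could share its reads, followed at 0.677. Cry1, a repressor of the circadian clock, came next at 0.724. Cry1 stood at 25.6 ± 7.30 CPM (SD, n = 3) in Activin A livers and between 7.13 ± 1.69 and 10.4 ± 0.923 CPM in the other groups. For Sema5b, with a spread of 1.12, the nearest were Slc16a13 at 0.387, Gpat3 at 0.465 and Pde4a at 0.486. For Htra3, with a spread of 1.14, they were Gpat3 at 0.394, Bhlhb9 at 0.405 and Rnf145 at 0.426. Gpat3, which encodes an acyltransferase of triglyceride synthesis, was thus near both Sema5b and Htra3. It stood at 4.70 ± 0.691 CPM (SD, n = 3) in chow, 23.9 ± 4.22 in NASH GFP, 31.9 ± 1.98 in Activin A, 20.2 ± 2.22 in scramble and 19.0 ± 1.72 in hairpin livers. These genes were ranked over libraries that include those that chose the 5 genes, and the likeness is a description.

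**Figure D4:**
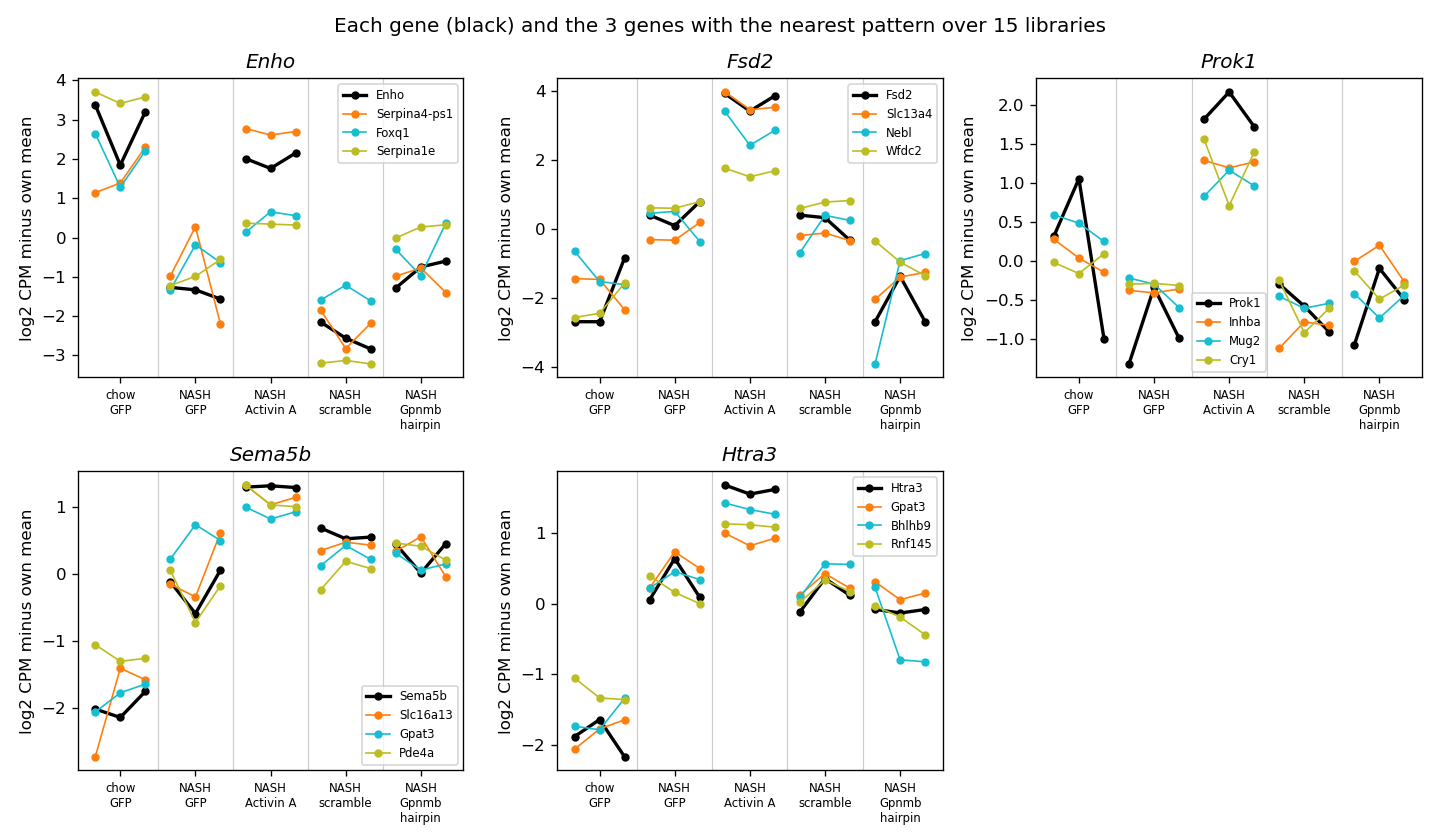
log2 CPM minus the gene's own mean in the 15 libraries, by group, for each of the 5 genes (black) and the 3 genes, among those searched, with the smallest root mean square difference from it. Fsd2 and Slc13a4 are lowest in chow and hairpin livers and highest with Activin A, while Sema5b and Htra3 and their nearest genes are lowest in chow.

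Genes of the activin pathway were read in the same libraries. Of 6 tested ligand and inhibitor genes, 3 were called higher with Activin A and 0 lower. Beside Inhba these were Fst (1.14 ± 0.17, edgeR adjusted p = 0.00683), which encodes follistatin, and Inhbc (0.90 ± 0.11, edgeR adjusted p = 0.00247), which encodes a hepatocyte activin subunit. With the hairpin, Inhba was higher and Inhbe, another hepatocyte subunit, was lower (-0.99 ± 0.14, edgeR adjusted p = 0.000802). Of 15 tested receptor and SMAD genes, 2 were called higher and 0 lower with Activin A. Ski, a repressor of SMAD activity, rose by 0.80 ± 0.09 (edgeR adjusted p = 0.00213). Smad6, an inhibitory SMAD, rose by 0.50 ± 0.12 (edgeR adjusted p = 0.0435), a call kept in 3 of 13 alternatives. With the hairpin 3 of the 15 were called higher and 2 lower, beside 12.2% and 12% of all tested genes. Among the lower ones was Acvr1b, an activin type I receptor (-0.56 ± 0.09, edgeR adjusted p = 0.00133). In scramble against chow Inhba was lower (-0.96 ± 0.19, edgeR adjusted p = 0.00465), and in NASH GFP against chow it was not called (-0.42 ± 0.19, edgeR adjusted p = 0.176).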

How the data were processed

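Liver RNA of 15 samples was made into stranded poly(A) libraries, per the labels' protocols. The authors deposited 3 tables, one per comparison, with whole-number counts per gene that were not normalized, per the file headers, on GRCm38 (mm10), per the submitters' processing notes. The aligner, counting tool, strand handling and gene annotation of the authors were not given in the sources used here. The tables were joined, and a gene that a table left out counted as 0 in its libraries. The NASH GFP libraries stood in 2 tables with equal counts in 23148 shared genes.

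Genes were filtered with filterByExpr (minimum count 10), scaled with TMM and tested with edgeR 4.0.16 in R 4.3.3, with the 2 groups of a comparison in the fit, Benjamini-Hochberg adjustment over all genes and two-sided p-values. SE is the log2 fold change divided by the square root of F. The fits were tested on simulated data. Replicate numbers came from the titles, and samples sharing a number did not deviate together (correlations -0.238 to 0.0219), so no pairing was used. The alternatives were size factors of DESeq2, library size alone, no filter, DESeq2 1.42.0, limma 3.58.1 (voom), all 15 libraries in one fit, a replicate block, and leaving out each library. Intervals cover counting error only, because PCR copies cannot be told from molecules here.

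The 5 genes, the gene lists and the tests were chosen with earlier results of these data known. Named beside the 5 genes were Inhba and Gpnmb, for each of the 5 the 3 genes nearest in pattern and those ranked just above and below, and called list genes with the smallest p (up to 4 per list and comparison). Other list genes (Sema5a, the tested paralogues, receptors and marker genes named as not called) were named after their values were seen. Some list results are not reported here.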

Additional observations from a re-analysis of the deposited data

How the results depend on the processing

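Over the alternatives, the log2 fold changes of Enho, Sema5b and Htra3 kept their direction and their side of the threshold in every comparison tested. Prok1 in hairpin against scramble reversed to -0.04 without scramble replicate 3 and to -0.16 without hairpin replicate 2, and was at most 0.33 without another library. With all 15 libraries in one fit, 1880 genes were called in hairpin against scramble (3601 in the comparison alone) and 4500 in NASH GFP against chow (2445). With no filter, 1297 genes were called with Activin A (806). The number of the 5 genes called in hairpin against scramble was 2 in place of 1 with no filter, with DESeq2 and with all 15 libraries, the added gene being Fsd2. Leaving out single libraries gave 248 to 1435 genes with Activin A, 1923 to 3496 with the hairpin, 1355 to 2233 in NASH GFP against chow and 2357 to 4812 in scramble against chow (4297). It gave 1 to 2 of the 5 genes with the hairpin and 3 to 5 in scramble against chow, with 5 without chow replicate 3. With the replicate block, 1597 genes were called in NASH GFP against chow, 590 with Activin A, 2985 with the hairpin and 3971 in scramble against chow, and 1 and 3 of the 5 genes in the last pair. The cause of these changes was not tested.

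Counts limit Fsd2 and Prok1. The 3 hairpin counts of Fsd2 come from 1 library, and so do its 4 chow counts. Without hairpin replicate 2 its fitted log2 fold change against scramble was -6.80, and without chow replicate 3 it was 6.73 in scramble and 6.95 in NASH GFP livers, values that depend on the prior count and are no bounds. Inhba in NASH GFP against chow passed the threshold with all 15 libraries in one fit (-0.45, edgeR adjusted p = 0.0335).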
